A study of Trametes versicolor and Gelatoporia subvermispora with 30 samples.

Results

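Transcripts of the lignin peroxidases LiP1, LiP3, LiP4, LiP5 and LiP6 of the white-rot fungus Trametes versicolor were followed over 5 culture conditions by RNA sequencing. The genes were taken by their symbols in the count tables of this species. They are 5 of its 10 symbols that begin with LiP, and 5 of the 26883 genes counted in the whole series, which also covered Gelatoporia subvermispora. The LiP symbols of G. subvermispora name genes of that fungus and were not used. A symbol stands for the enzyme class it abbreviates, which read counts cannot check.

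Lignin peroxidases are secreted heme enzymes of the class II fungal peroxidases. They use hydrogen peroxide to pull single electrons from aromatic rings, including the non-phenolic units of lignin that most other oxidases leave intact. Manganese peroxidases, close relatives of theirs, oxidise manganese(II) instead, and versatile peroxidases combine both activities. White-rot fungi such as T. versicolor carry several lignin peroxidase genes.

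The fungus was grown submerged in a defined mineral medium. Cultures had cellobiose (5 g per litre) with 4-hydroxybenzoic acid (4HBA, 2 mM), cellobiose with syringic acid (2 mM), cellobiose with a poplar lignin preparation (25 mg in 25 mL), milled and autoclaved poplar wood without cellobiose (2 g in 25 mL), or cellobiose alone. Poplar cultures therefore differ from the rest in their sugar source as well. Each group had 3 libraries, and since nothing in the labels ties a library to a culture of its own, p-values measure the spread between libraries, which may be technical.

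Gene counts came to 16.7 to 27.3 M per library, and to 42.2 to 50.4 M on poplar. The 10 most abundant genes took 41.9% to 48.4% of them in the 6 libraries of the 4HBA and cellobiose groups, against 3.84% to 7.45% in the other 9. Aligned reads outside any gene split the same libraries, at 21.1% to 22.1% of all reads in the 4HBA and cellobiose libraries, against 6.25% to 9.52% in the other 9. Reads that did not align split them too, at 21.2% to 23.4% against 2.76% to 4.25%. In comparisons of syringic acid, lignin or poplar with cellobiose or 4HBA, this difference between libraries cannot be told apart from the culture condition. Comparisons among syringic acid, lignin and poplar, and of 4HBA with cellobiose, do not cross it. Poplar libraries stood apart from lignin and syringic acid ones by less, but without overlap. Their 10 most abundant genes took 6.53% to 7.45%, against 3.84% to 4.4%. Aligned reads outside any gene came to 6.25% to 6.68%, against 8.43% to 9.52%, and unaligned reads to 2.76% to 3.23%, against 3.57% to 4.25%. In poplar against lignin or syringic acid, this and the depth cannot be told apart from the condition. Sample numbers are written in another form for lignin and syringic acid than for the remaining groups, and the labels do not say what the form stands for. In comparisons of either of them with poplar, cellobiose or 4HBA, that difference and the condition cannot be told apart.

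Levels are given as CPM, the count relative to library size, after TMM scaling, which sets libraries side by side by the bulk of their genes. The scaling multiplied library sizes by 0.649 to 0.714 with 4HBA, 1.42 to 1.51 with syringic acid, 1.43 to 1.47 with lignin, 0.971 to 1.01 on poplar and 0.652 to 0.750 on cellobiose. Small changes therefore rest on the choice of scaling, and plain CPM (scaled by total gene counts alone) is given where it turns a direction or moves a called change by a large amount. Changes are called where the adjusted p of edgeR's quasi-likelihood test over 12295 genes was below 0.05. In a bulk sample, fewer cells using a gene and less RNA per cell cannot be told apart.

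All 5 genes passed the filter on low counts and were detected in all 15 libraries, at low levels. A single gene drew 12 to 535 counts in a library, and the lowest level of any of them, 0.772 CPM, lay above the highest limit that 3 counts set, 0.205 CPM. Together the 5 genes took 20.6 to 22.1 CPM with 4HBA, 23.0 to 26.7 CPM with syringic acid, 24.3 to 29.5 CPM with lignin and 23.8 to 26.7 CPM on poplar, against 19.9 to 23.0 CPM on cellobiose. After TMM scaling every sum with syringic acid, with lignin and on poplar lay above every sum with 4HBA and on cellobiose. The margin was narrow, from 22.95 CPM at most on cellobiose to 22.97 CPM at least with syringic acid. This split falls along the difference in library make-up described above. By plain CPM the same sums were 13.7 to 14.7 with 4HBA, 32.6 to 39.8 with syringic acid, 34.8 to 43.3 with lignin and 23.5 to 26.0 on poplar, against 14.0 to 17.2 on cellobiose.

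LiP3, LiP4, LiP5 and LiP6 are neighbours, in that order, in the RefSeq table of the T. versicolor v1.0 assembly, whose gene order was used without its positions. LiP4 and LiP5 lie side by side, 1 gene separates LiP5 from LiP6, and 6 genes lie between LiP3 and LiP4. LiP1 lies elsewhere, followed by LiP2 and LiP12 with 1 gene between each pair. None of the 5 overlaps an adjacent gene in that table. How the authors' counting placed reads shared by near-identical copies is not given in the sources used here, so single members of this family are uncertain to that extent.

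LiP1 was high with lignin and syringic acid. Its levels were 4.51, 3.75 and 6.03 CPM with 4HBA, 10.5, 12.4 and 6.84 CPM with syringic acid, 13.5, 11.2 and 10.0 CPM with lignin and 6.92, 7.15 and 6.84 CPM on poplar, against 6.75, 5.81 and 5.41 CPM on cellobiose. The 3 lignin libraries stood above all 4HBA, poplar and cellobiose libraries, and syringic acid replicate 3 lay at the poplar level. LiP1 rose with lignin by 0.95 on the log2 scale (SE 0.20, 1.94-fold, adjusted p = 0.00109). It rose with syringic acid by 0.72 (SE 0.20, 1.65-fold, adjusted p = 0.00778). Both rises kept their call under every alternative listed in the closing section, and by plain CPM they were larger, at 2.01 with lignin and 1.79 with syringic acid. On poplar the log2 change was 0.22 (95% interval -0.21 to 0.65, adjusted p = 0.334), and with 4HBA it was -0.33 (95% interval -0.80 to 0.15, adjusted p = 0.367).

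**Figure D1:**
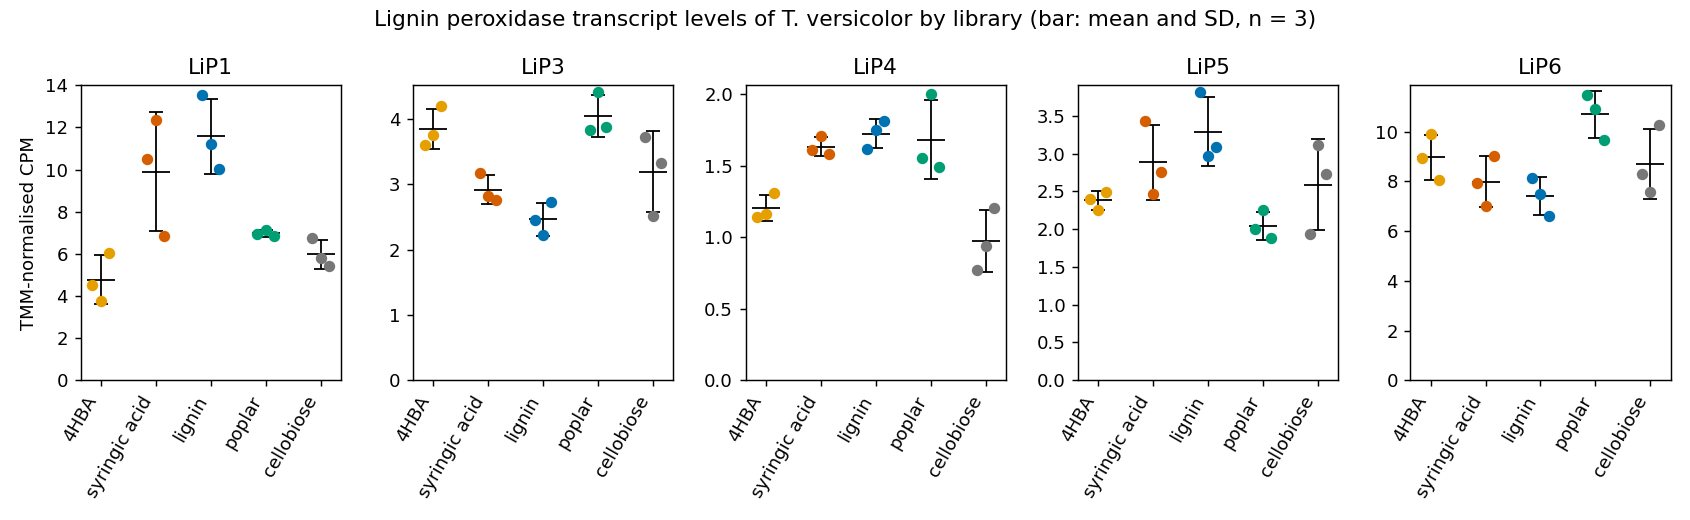
TMM-normalised CPM (vertical axis, linear from 0, a scale of its own for each gene) of 5 lignin peroxidase genes in the 3 libraries of each culture condition, with bars for the mean and SD. LiP1 reaches 10.0 to 13.5 CPM with lignin, LiP4 has its lowest mean on cellobiose, and LiP3 and LiP6 have their highest means on poplar, which by plain CPM they have with syringic acid.

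LiP4, the member with the fewest counts, was higher with syringic acid, with lignin and on poplar than on cellobiose. It stood at 1.14, 1.16 and 1.31 CPM with 4HBA, 1.61, 1.71 and 1.58 CPM with syringic acid, 1.61, 1.75 and 1.81 CPM with lignin and 1.55, 2.00 and 1.49 CPM on poplar, against 0.772, 0.939 and 1.20 CPM on cellobiose. No syringic acid, lignin or poplar library came down to the cellobiose range, and these 3 groups overlapped one another. LiP4 rose with lignin by 0.81 on the log2 scale (SE 0.19, adjusted p = 0.0026), on poplar by 0.78 (SE 0.19, adjusted p = 0.00162) and with syringic acid by 0.73 (SE 0.20, adjusted p = 0.00623). The calls held under every alternative run, and plain CPM gave larger changes of 1.86 with lignin, 1.26 on poplar and 1.79 with syringic acid. They rest on 192 counts summed over the lignin libraries, 229 on poplar and 157 with syringic acid, against 50 on cellobiose, and each of these comparisons crosses the difference in library make-up described above. With 4HBA, which does not cross it, the change was 0.30 (95% interval -0.29 to 0.88, adjusted p = 0.515).

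After TMM scaling LiP3 had its highest mean on poplar and its lowest with lignin, while by plain CPM the means were 4.27 with syringic acid, 3.59 with lignin and 4.00 on poplar, against 2.25 on cellobiose. Its levels were 3.61, 3.75 and 4.20 CPM with 4HBA, 3.17, 2.82 and 2.76 CPM with syringic acid, 2.45, 2.22 and 2.73 CPM with lignin and 3.84, 4.41 and 3.88 CPM on poplar, against 3.73, 2.52 and 3.33 CPM on cellobiose. Poplar and 4HBA libraries overlapped at the top, and all lignin libraries lay below all syringic acid ones. Against cellobiose LiP3 rose on poplar by 0.34 on the log2 scale (SE 0.15, adjusted p = 0.0452), or 0.83 by plain CPM. That call ended in 9 of 13 alternatives, with adjusted p = 0.0658 by DESeq2, 0.122 under upper-quartile scaling and 0.22 without cellobiose replicate 2. It also ended without cellobiose replicate 3 or any 1 poplar replicate (adjusted p from 0.0513 to 0.131). With lignin the change was -0.37 (SE 0.15, adjusted p = 0.0576). This change was called lower by DESeq2 (adjusted p = 0.0475), with RLE scaling (-0.41, adjusted p = 0.033), without genes over 1% of a library (-0.43, adjusted p = 0.0273), without cellobiose replicate 2 (-0.51) and without lignin replicate 3 (-0.45), whereas plain CPM put lignin above cellobiose by 0.68. Syringic acid gave -0.12 (adjusted p = 0.526), which plain CPM turned to 0.93, and 4HBA gave 0.27 (adjusted p = 0.284).

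LiP6 had its means in the same order of conditions as LiP3, with poplar on top and lignin at the bottom, while plain CPM put syringic acid on top (11.7, against 10.6 on poplar). It stood at 8.96, 9.89 and 8.07 CPM with 4HBA, 7.93, 7.00 and 9.04 CPM with syringic acid, 8.12, 7.51 and 6.61 CPM with lignin and 11.5, 10.9 and 9.66 CPM on poplar, against 8.30, 7.57 and 10.3 CPM on cellobiose. Poplar lay above lignin and syringic acid without overlap, and overlapped 4HBA and cellobiose. None of the 4 conditions passed the test against cellobiose. The nearest was poplar, with a log2 change of 0.29 (95% interval 0.01 to 0.58 before adjustment, adjusted p = 0.0639), which was called without cellobiose replicate 3 (0.44, adjusted p = 0.0142) or without poplar replicate 3 (0.36, adjusted p = 0.0414). For 4HBA the change was 0.04 (95% interval -0.27 to 0.35), which plain CPM turned to -0.03. Syringic acid gave -0.12 and lignin -0.24, which plain CPM turned to 0.92 and 0.81.

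LiP5 was lowest on poplar and highest with lignin. Its levels were 2.40, 2.25 and 2.49 CPM with 4HBA, 3.43, 2.46 and 2.76 CPM with syringic acid, 3.81, 2.97 and 3.09 CPM with lignin and 2.00, 2.25 and 1.88 CPM on poplar, against 1.93, 3.11 and 2.73 CPM on cellobiose. Poplar lay below all lignin and syringic acid libraries, and the wide cellobiose group overlapped every other group. Against cellobiose the log2 change was 0.34 with lignin (SE 0.18, adjusted p = 0.131) and -0.35 on poplar (SE 0.18, adjusted p = 0.104). Under upper-quartile scaling both passed, at 0.46 (adjusted p = 0.0393) and -0.43 (adjusted p = 0.0488), and plain CPM turned the poplar change to 0.13. The poplar change also passed without cellobiose replicate 1 (-0.50, adjusted p = 0.0255). Syringic acid gave 0.16 (adjusted p = 0.488) and 4HBA -0.13 (adjusted p = 0.731).

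The spread between libraries was in places no wider than counting error. For LiP4 with 4HBA, the coefficient of variation over the 3 libraries was 7.75%, against 23.1% that counting alone gives at its mean count. LiP1 with syringic acid varied by 28.4%, against 5.64% from counting, with replicate 3 below the other 2. On poplar, with the deepest libraries, LiP1 varied by 2.33% (6.97 ± 0.162 CPM, SD, n = 3).

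**Figure D2:**
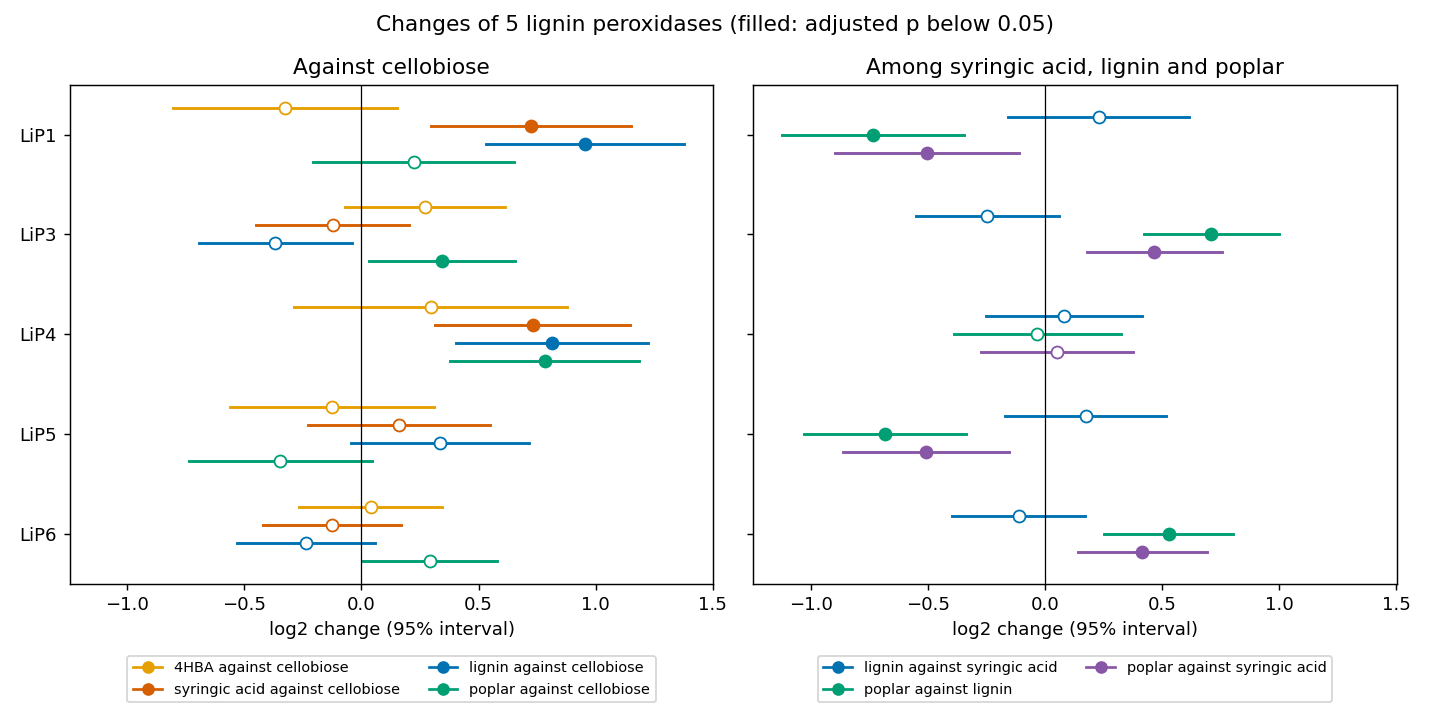
Log2 changes of the 5 lignin peroxidase genes with 95% intervals (horizontal axis), against cellobiose on the left and among syringic acid, lignin and poplar on the right; filled points had an adjusted p below 0.05 in edgeR. LiP4 is filled for 3 conditions on the left and for none on the right, and poplar against lignin puts LiP1 and LiP5 below 0 and LiP3 and LiP6 above it, of which plain CPM turns LiP6 to -0.03.

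Against cellobiose, members were called with syringic acid, with lignin and on poplar, and none passed the test with 4HBA. With 4HBA 0 of 5 were called by edgeR, 0 had an unadjusted p under 0.05 and DESeq2 called 0, while 9.00% of all tested genes were called higher and 7.35% lower. With syringic acid 2 of 5 rose (LiP1 and LiP4), beside 27.1% higher and 22.4% lower among all genes. With lignin the same 2 rose, beside 26.9% and 23.0%, and on poplar LiP3 and LiP4 rose, beside 35.7% and 35.4%. The median log2 change of the 5 genes was 0.04 with 4HBA, 0.16 with syringic acid, 0.34 with lignin and 0.29 on poplar, against 0.00, 0.07, 0.07 and -0.01 over all tested genes. By plain CPM the medians of the 5 genes were -0.03 with 4HBA, 1.19 with syringic acid, 1.38 with lignin and 0.78 on poplar. With 5 genes, these counts do not show whether lignin peroxidases were called more or less often than other genes. These 4 comparisons share the cellobiose libraries.

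The 2 acids were compared at the same 2 mM. Syringic acid differs from 4HBA by a methoxy group on each side of the hydroxyl. LiP1 was higher with syringic acid than with 4HBA by 1.05 on the log2 scale (SE 0.21, 2.07-fold, adjusted p = 0.000787), with means of 9.91 ± 2.81 CPM in syringic acid cultures and 4.76 ± 1.16 CPM in 4HBA cultures (SD, n = 3 each). By plain CPM that difference was 2.19. LiP3 was lower, with a log2 change of -0.39 (SE 0.15, adjusted p = 0.0419), which plain CPM turned to 0.72. That call ended in 6 of 13 alternatives, which were upper-quartile scaling and leaving out any 1 of the 4HBA replicates or syringic acid replicate 2 or 3. LiP4 differed by 0.44 (95% interval 0.01 to 0.87 before adjustment, adjusted p = 0.0869), LiP5 by 0.29 (95% interval -0.11 to 0.69) and LiP6 by -0.16 (95% interval -0.46 to 0.13), which plain CPM turned to 0.95. Of 5 genes 1 was thus higher and 1 lower, beside 26.2% and 22.0% of all genes. P-values are adjusted over all genes in this 1 pair of acids, and the pair crosses the difference in library make-up.

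Lignin and syringic acid gave levels that the test did not separate. By edgeR 0 of the 5 genes differed, 0 had an unadjusted p under 0.05 and DESeq2 called 0, beside 3.95% of all genes higher and 4.79% lower with lignin. LiP1 averaged 11.6 ± 1.78 CPM in lignin cultures and 9.91 ± 2.81 CPM in syringic acid cultures (SD, n = 3 each), a log2 difference of 0.23 (95% interval -0.16 to 0.62). The largest negative difference was that of LiP3, -0.24 (95% interval -0.55 to 0.06), and the intervals of LiP4, LiP5 and LiP6 lay between -0.39 and 0.52. The upper bound for LiP1 lies below the estimate of 0.72 for its rise with syringic acid over cellobiose. It lies within the 95% interval of that rise, 0.30 to 1.15, and both comparisons share the syringic acid libraries.

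Whole poplar against isolated lignin split the family. LiP1 was lower on poplar, at 6.97 ± 0.162 CPM against 11.6 ± 1.78 CPM with lignin (SD, n = 3 each; log2 change -0.73, SE 0.18, adjusted p = 0.00188). LiP5 was lower too, at 2.04 ± 0.187 CPM on poplar and 3.29 ± 0.457 CPM with lignin (log2 change -0.68, SE 0.16, adjusted p = 0.00125). By plain CPM these changes were -1.29 for LiP1 and -1.25 for LiP5. LiP3 was higher, at 4.04 ± 0.322 CPM on poplar and 2.47 ± 0.257 CPM with lignin (log2 change 0.71, SE 0.14, adjusted p = 0.000186), a difference that plain CPM put at 0.15. LiP6 was higher as well, at 10.7 ± 0.937 CPM on poplar and 7.42 ± 0.761 CPM with lignin (log2 change 0.53, SE 0.13, adjusted p = 0.0016), whereas by plain CPM it was 10.6 on poplar and 10.8 with lignin, a log2 ratio of -0.03. After TMM scaling the groups did not overlap in any of these 4 genes, and the calls held in every edgeR and DESeq2 alternative. The share of all genes without such overlap was not computed, so the lack of overlap is a description only. LiP4 stood at 1.68 ± 0.279 CPM on poplar and 1.72 ± 0.101 CPM with lignin, a change of -0.03 (95% interval -0.39 to 0.33). That makes 2 higher and 2 lower of 5, beside 37.4% of all genes higher and 39.4% lower, so a call in this comparison is common.

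In poplar against syringic acid, LiP1, LiP3, LiP5 and LiP6 had the same signs as against lignin, with smaller values. LiP3 was higher by 0.47 on the log2 scale (SE 0.14, adjusted p = 0.00574) and LiP6 by 0.42 (SE 0.13, adjusted p = 0.00916). LiP5 was lower, with a log2 change of -0.51 (SE 0.17, adjusted p = 0.0123), and so was LiP1, with -0.50 (SE 0.19, adjusted p = 0.0234) and groups that overlapped through syringic acid replicate 3. By plain CPM they were -1.06 for LiP5 and -1.08 for LiP1. LiP4 differed by 0.05 (95% interval -0.27 to 0.38), which plain CPM turned to -0.53. Of all genes 35.0% were higher and 37.4% lower. The LiP1 call was lost when any 1 of poplar replicate 1, poplar replicate 3, syringic acid replicate 1 or syringic acid replicate 2 was left out (log2 change -0.32 without the last), and the LiP5 call without syringic acid replicate 1 (-0.35). Upper-quartile scaling ended the calls of LiP3 (0.26) and LiP6 (0.21), and plain CPM turned them to -0.09 and -0.14. Both poplar comparisons share the poplar libraries.

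The ratio of 2 members within a library does not depend on scaling. The ratio of LiP1 to LiP3 counts was 1.25, 1.00 and 1.44 with 4HBA, 3.31, 4.38 and 2.48 with syringic acid, 5.52, 5.05 and 3.67 with lignin and 1.80, 1.62 and 1.76 on poplar, against 1.81, 2.30 and 1.62 on cellobiose. All lignin and syringic acid libraries lay above all libraries of the other 3 groups, and 4HBA lay below poplar and cellobiose. The counts of the neighbours LiP5 and LiP4 also stood in another proportion on poplar. LiP5 had 1.29, 1.12 and 1.26 times the counts of LiP4 on poplar, against 2.50, 3.31 and 2.27 times on cellobiose. The other groups lay between, at 1.90 to 2.11 with 4HBA, 1.44 to 2.13 with syringic acid and 1.70 to 2.36 with lignin. The ratio of LiP5 to LiP6 counts lay at 0.174 to 0.206 on poplar and at 0.395 to 0.469 with lignin. It was 0.228 to 0.309 with 4HBA, 0.305 to 0.432 with syringic acid and 0.233 to 0.411 on cellobiose. The pairs were chosen after the values were seen and are given without a test.

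**Figure D3:**
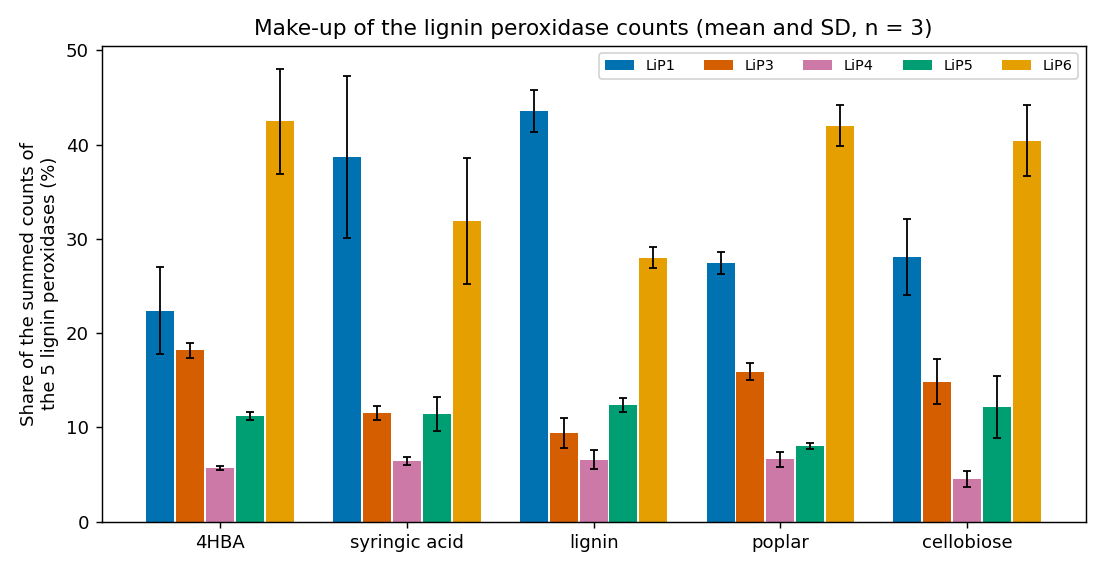
Mean share of each gene in the summed counts of the 5 lignin peroxidase genes (vertical axis, percent) by culture condition, with SD over 3 libraries. The LiP1 share is 43.6% with lignin and 38.7% with syringic acid, against 28.0% on cellobiose, and the LiP6 share is 28.0% with lignin and 42.0% on poplar.

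As shares of the counts of all 5 genes, LiP1 made up 22.4% ± 4.66 with 4HBA, 38.7% ± 8.59 with syringic acid, 43.6% ± 2.24 with lignin and 27.5% ± 1.16 on poplar, against 28.0% ± 4.04 on cellobiose (SD, n = 3 each). LiP6 made up 42.5% ± 5.58, 31.9% ± 6.66, 28.0% ± 1.12 and 42.0% ± 2.17 in the same 4 conditions, against 40.4% ± 3.76 on cellobiose. Shares are of counts, which grow with transcript length, so they do not compare 2 genes with each other. A share also moves when other members change, so it is not the change of 1 gene alone. By plain CPM LiP6 was 10.6 on poplar and 10.8 with lignin, while LiP1 was 6.89 and 16.9. LiP5 was at 8.03% ± 0.336 on poplar and 12.4% ± 0.728 with lignin.

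Of the remaining lignin peroxidases, LiP12 rose in the same 2 conditions as LiP1, and LiP2, which lies between them, fell there after TMM scaling, though not by plain CPM. LiP12 averaged 5.33 ± 1.08 CPM in syringic acid cultures and 4.73 ± 0.788 CPM in lignin cultures, against 2.36 ± 0.269 CPM on cellobiose (SD, n = 3 each), and rose by 1.18 and 1.00 on the log2 scale. By plain CPM these rises were 2.23 and 2.05. LiP2 fell with 4HBA (log2 change -1.04), syringic acid (-0.61) and lignin (-0.53), and rose on poplar (0.71), but plain CPM turned its syringic acid and lignin changes to 0.44 and 0.52. LiP9 had the largest change of the 10, a rise on poplar by 2.41, at 7.44 ± 0.365 CPM on poplar and 1.40 ± 0.135 CPM on cellobiose. LiP9 was also called higher with 4HBA (0.72), syringic acid (0.93, or 1.99 by plain CPM) and lignin (0.49, or 1.53 by plain CPM). LiP10 rose with syringic acid by 0.67 (1.72 by plain CPM), and LiP8, under 1 CPM in every library, was not called against cellobiose. Over these 5 genes 3 rose and 1 fell with syringic acid, beside 27.1% higher and 22.4% lower among all genes. With lignin 2 rose and 1 fell, beside 26.9% and 23.0%, and on poplar 2 rose, beside 35.7% and 35.4%. With 4HBA 1 rose and 1 fell, beside 9.00% and 7.35%. So few genes do not show whether they were called more or less often than other genes.

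The other class II peroxidase symbols gave more falls than rises on poplar. Among 13 manganese peroxidases 2 were higher and 8 lower on poplar than with lignin (median log2 change -1.27), beside 37.4% higher and 39.4% lower among all genes, and among 3 versatile peroxidases 2 were lower (median -1.14). Of the symbols that begin with HTP 2 of 3 were lower, of those that begin with DyP 2 of 2, and of the laccases 5 of 7, with none higher. Plain CPM gave medians of the same sign. The corresponding medians were -0.03 for the 5 lignin peroxidases, which plain CPM put at -0.60 with 4 of 5 below 0, and -0.04 for all tested genes. Against cellobiose, where 26.9% of all genes were higher and 23.0% lower, lignin gave 1 higher and 6 lower among the manganese peroxidases, 1 lower among the versatile peroxidases and 1 lower among the 7 laccases, 3 of which were higher. Of the HTP symbols 2 were higher and 1 lower, and of the DyP symbols 0 were called. Medians were -0.22 for the manganese and -0.12 for the versatile peroxidases, which plain CPM turned to 0.82 and 0.92. Whether the families differ in their response was not tested.

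Genes lying between the lignin peroxidases did not share 1 response. Of the 7 genes between LiP3 and LiP6 that are not lignin peroxidases, 6 were tested. TRAVEDRAFT_74601, between LiP5 and LiP6, fell with syringic acid (log2 change -1.67), lignin (-2.73) and on poplar (-3.05), while LiP5 and LiP6 were not called in those comparisons. By plain CPM these falls were -0.63, -1.70 and -2.56. TRAVEDRAFT_23625 rose with syringic acid (0.90) and lignin (0.92) and fell on poplar (-0.67), or 1.97, 1.97 and -0.18 by plain CPM. TRAVEDRAFT_23626 fell with 4HBA (-0.44) and rose on poplar (0.66, or 1.15 by plain CPM). TRAVEDRAFT_52329 rose with syringic acid (0.40, or 1.45 by plain CPM) and with lignin (0.64, or 1.69 by plain CPM). TRAVEDRAFT_60751 rose with lignin (0.83, or 1.89 by plain CPM) and fell on poplar (-0.77), and TRAVEDRAFT_52326 rose with syringic acid (1.06, or 2.12 by plain CPM). Both, with TRAVEDRAFT_23625 and TRAVEDRAFT_52329, were called lower on poplar than with lignin or syringic acid, beside 39.4% and 37.4% of all genes. TRAVEDRAFT_23626 was called higher in both (beside 37.4% and 35.0%), and TRAVEDRAFT_74601 lower only against syringic acid. Between LiP1 and LiP12 the genes TRAVEDRAFT_62859 and TRAVEDRAFT_26611 were not called in any of the 4 conditions. TRAVEDRAFT_26611 averaged 1.10 CPM, and its changes of 0.62 with syringic acid and 0.59 with lignin had the sign of the LiP1 changes. For TRAVEDRAFT_62859 plain CPM turned -0.18 with syringic acid, -0.11 with lignin and -0.03 on poplar to 0.86, 0.93 and 0.45.

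The 3 genes whose log2 CPM followed each member most closely over the 15 libraries had no symbol. For LiP1 the nearest were TRAVEDRAFT_120727, TRAVEDRAFT_45322 and TRAVEDRAFT_52262 (Pearson r 0.95 each), and the nearest with a symbol was LiP12 (r = 0.86). TRAVEDRAFT_45322 averaged 42.0 CPM with syringic acid and 47.1 CPM with lignin, against 23.4 CPM on cellobiose. For LiP3 the nearest was TRAVEDRAFT_69672 (r = 0.93), for LiP4 TRAVEDRAFT_131916 (0.95), for LiP5 TRAVEDRAFT_116298 (0.91) and for LiP6 TRAVEDRAFT_138929 (0.89). LiP3 and LiP6 were each other's nearest with a symbol (r = 0.66), while VP3at, a versatile peroxidase by its symbol, was nearest to LiP5 (0.81) and the laccase TvLac6 to LiP4 (0.65). Points of these correlations share groups of 3 libraries, and each is the highest of 11229 genes compared, or of those with a symbol, so they are descriptions.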

How the data were processed

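The deposited values are counts of reads per gene, 1 library per file. Per the labels' protocols, RNA was depleted of ribosomal RNA and made into stranded libraries. HTSeq, Bowtie2, Bowtie and FastQC are named in the submitters' processing notes, with settings, strand option and genome build not given there. Entries that name no gene (9.60% to 48.7% of all reads in the T. versicolor files) were left out. All 15 T. versicolor libraries were fitted together in edgeR 4.0.16 (R 4.3.3), with TMM scaling, its default expression filter (12295 of 14570 genes) and 1 mean per group. Quasi-likelihood F-tests were two-sided with Benjamini-Hochberg adjustment over all tested genes. Standard errors and 95% intervals are those implied by the reported p and are not adjusted. The code was checked on simulated counts. G. subvermispora files served only to count genes. The RefSeq table (T. versicolor v1.0) matched 14560 genes.

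The members and lists were chosen with earlier results of these data known. Named genes were all 5 members, the other LiP symbols, peroxidase and laccase lists by count, and the nearest 3 genes, and the nearest symbol, by Pearson r of log2 CPM (prior count 2) among genes with a mean of at least 1 CPM. Genes between the lignin peroxidases and pairs for ratios were added after values were seen. Lists that need product names were not used here. Alternatives were RLE and upper-quartile scaling, leaving out genes over 1% of a library, 2 other filters, DESeq2 1.42.0, the compared groups alone, and leaving out each replicate.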

Additional observations from a re-analysis of the deposited data

How the results depend on the processing

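Each of 40 log2 changes (5 genes, 8 comparisons) was recomputed under 13 alternatives, 520 values in all. Direction and call were kept in 473, a call was lost in 22 and gained in 11, and the sign turned in 14, all of them changes that passed neither way. Of 16 called changes 10 kept their call throughout, and 6 lost it at least once: LiP3 in syringic acid against 4HBA, poplar against cellobiose and poplar against syringic acid, and LiP1, LiP5 and LiP6 in poplar against syringic acid. Plain CPM was not among the 13 alternatives. It turned the called changes of LiP3 in syringic acid against 4HBA and of LiP3 and LiP6 in poplar against syringic acid. LiP6 in poplar against lignin, 1 of the 10, turned as well, from 0.53 to -0.03.

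Upper-quartile scaling turned LiP3 and LiP6 in syringic acid against cellobiose to 0.0065 and 0.0044, and LiP4 in poplar against syringic acid to -0.16. LiP4 in poplar against lignin turned to 0.0057 with DESeq2, 0.0054 with RLE scaling and 0.0269 without genes over 1% of a library. Leaving out single replicates, it ranged from -0.17 to 0.0504, LiP4 in poplar against syringic acid from -0.0908 to 0.13, LiP5 in 4HBA against cellobiose from -0.28 to 0.028, LiP6 in 4HBA against cellobiose from -0.0466 to 0.18 and LiP6 in syringic acid against cellobiose from -0.22 to 0.0169.

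In poplar against cellobiose 1 of the 5 genes was called with the 1 CPM filter, with DESeq2 and with the compared groups alone, and 1 to 3 without single replicates, against 2 reported. In poplar against syringic acid 2 were called with upper-quartile scaling and 2 to 4 without single replicates, against 4. In syringic acid against 4HBA 1 to 2 were called without single replicates, against 2. Over all genes, 4HBA against cellobiose gave 1265 to 1772 calls without single replicates, against 2011. Lignin against syringic acid gave 344 with the compared groups alone and 525 (without lignin replicate 1) to 2258 (without syringic acid replicate 2), against 1075. The cause of these shifts was not tested.

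Upper-quartile scaling moved the median of all genes by 0.13 in syringic acid and in lignin against cellobiose, 0.16 in syringic acid against 4HBA and -0.21 in poplar against lignin or syringic acid. Genes called higher and lower then numbered 4597 and 1952 (3330 and 2760 with TMM) in syringic acid against cellobiose, 4541 and 2021 (3313 and 2825) in lignin against cellobiose, 4915 and 1868 (3227 and 2702) in syringic acid against 4HBA, 3541 and 5982 (4595 and 4843) in poplar against lignin, and 3173 and 5929 (4307 and 4603) in poplar against syringic acid. Plain CPM moved 20 of 25 group means by more than 1 SD, upper-quartile scaling 3 and RLE 0. No paired analysis was possible because the labels give no replicate number shared between groups. Counts of 12 to 22 per cellobiose library limit LiP4 most.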
